A study of Homo sapiens with 12 samples.

Results

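ATF4 and 9 genes that act under it or beside it in serine synthesis and mitochondrial folate metabolism were followed by RNA sequencing in relapsing leukemia cells. They were taken by name from the deposited count table, and 10 of 10 names (ATF4, DDIT3, TRIB3, CHAC1, ASNS, PHGDH, PSAT1, PSPH, SHMT2 and MTHFD2) were found among the 26481 genes kept. The filter on low counts left 14164 genes for testing, and all 10 genes passed it.

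The cells were HEL (HEL 646C in the sample titles), an established human erythroleukemia line used as a model of acute myeloid leukemia (AML), and every culture, controls included, carried DNA barcodes. Untreated cells (NT, n = 2, replicates 1 and 2) grew with 0.1 µM DMSO. Relapses had been exposed for 72 to 74 h to 1.8 µM doxorubicin (Doxo, n = 3, replicates 4, 5 and 6), to doxorubicin with 6 µM cytarabine (Doxo+Cyta, n = 3, replicates 19, 20 and 22), or to both with 0.1 µM decitabine (Doxo+Cyta+DAC, n = 4, replicates 30 to 33). The survivors were then washed, freed of dead cells and grown without drug for about 30 days, until the culture was back at its starting number. Doxorubicin damages DNA through topoisomerase II, cytarabine is a nucleoside analog that blocks DNA synthesis, and decitabine inhibits DNA methylation. The design asks how relapses to chemotherapy differ from untreated cells, and how adding decitabine changes the relapse. A relapse is 1 culture regrown from the small share of cells that survived. RNA from the whole culture thus cannot tell a shift of level within cells from a shift in which cells are present. Nor can it tell fewer cells of a type from less RNA per cell.

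ATF4 is a transcription factor of the integrated stress response. Kinases that phosphorylate the initiation factor eIF2-alpha slow general translation while the ATF4 mRNA is translated more, so that ATF4 protein is set largely after transcription and the counts below measure its mRNA only. ATF4 drives stress effectors such as DDIT3 (CHOP), TRIB3 and CHAC1, and also genes that restore amino acid supply, among them asparagine synthetase (ASNS). PHGDH, PSAT1 and PSPH make serine from a glycolytic intermediate in consecutive steps, after which mitochondrial SHMT2 and MTHFD2 move the serine carbon through folate toward formate for purine and thymidylate synthesis. Proliferating leukemia cells draw heavily on this route.

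To show the DNA these genes are read from, upstream windows of 250 bases from RefSeq (GRCh38.p14) were searched on both strands for TGATGNAA, the letters of the composite site at which ATF4 pairs with a C/EBP protein. Windows were found for 8 of the 10 genes, not for PSPH and SHMT2. The letters occurred in windows of 2 of these genes, CHAC1 and ASNS, and in 3.14% of all 35116 windows. A match is a description of the letters and not a measurement of binding. Below, 30 bases around each match are given in the direction of the gene, with the 8 matching letters in capitals. The CHAC1 match lies on the opposite strand to the gene at chr15:40953251-40953280 (gene on the + strand) and begins 209 bases before the RefSeq start, and the ASNS match lies on the strand of the gene at chr7:97872458-97872487 (gene on the - strand) and begins 68 bases before 1 of its RefSeq starts. Both sites are inside the first exon of a longer annotated transcript of their gene.
CHAC1: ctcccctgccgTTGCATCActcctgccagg
ASNS: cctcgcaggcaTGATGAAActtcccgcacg

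Because decitabine acts on methylation of CpG dinucleotides, CpGs were counted in the same windows. The median over all windows was 11. PHGDH had 11, PSAT1 had 30, and the 8 genes ranged from 11 to 34. The stretches of the PHGDH window (chr1:119711684-119711736, + strand) and the PSAT1 window (chr9:78296875-78297074, + strand) that lie outside annotated exons follow, with each CpG in capitals. The PHGDH stretch of 53 bases holds 1 CpG and the PSAT1 stretch of 200 bases holds 23. Methylation was not measured in these libraries, so no result rests on the CpG counts.
PHGDH: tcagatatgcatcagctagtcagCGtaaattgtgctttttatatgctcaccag
PSAT1: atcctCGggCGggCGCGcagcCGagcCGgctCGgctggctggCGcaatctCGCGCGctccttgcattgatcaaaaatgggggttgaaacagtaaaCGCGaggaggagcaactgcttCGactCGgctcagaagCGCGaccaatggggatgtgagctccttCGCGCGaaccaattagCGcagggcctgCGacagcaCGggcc

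Library totals lay between 12763582 and 19106235 counts, and the smallest member count was 58 (PSPH in Doxo replicate 5). All 9 erythroid and megakaryocytic markers of the line (among them GATA1, TAL1, KLF1 and ITGA2B) had at least 10 counts in every library, with a summed level of 9020 to 10100 CPM (counts per 1000000 counted fragments, scaled by the TMM method) in NT and 6890 to 9440 CPM in Doxo+Cyta+DAC. Markers of T cells, B cells, monocytes and fibroblasts summed to at most 56.4, 6.07, 7.47 and 51.8 CPM in any library. Nearly all of the fibroblast sum was PDGFRB, at 34.5 to 39.2 CPM in NT and 5.94 to 9.08 CPM in Doxo+Cyta+DAC, while COL1A1, COL1A2 and COL3A1 stayed at or under 1.27 CPM in every library. Nearly all of the T cell sum was CD2, at 26.6 to 27.3 CPM in NT and 46.8 to 55.7 CPM in Doxo, with CD3D and CD3E at or under 0.158 CPM in every library. The part of these genes in the results was not tested. Doxo replicate 4 and Doxo+Cyta replicate 20 stood apart from their groups, with a root-mean-square log2 distance over all tested genes of 0.498 and 0.544 from the other libraries of the group, against 0.294 to 0.435 for the other 10 libraries. Among the 10 genes, Doxo replicate 4 lay above both other Doxo libraries for 6 and below both for 4, and Doxo+Cyta replicate 20 lay above both others for 9 and below both for 1 (MTHFD2). Values without 1 or both of these libraries (leaving out both was an alternative chosen after seeing the data) are given below where they change a call, and directions they change without a call are in the closing section.

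Per kilobase of exon, ATF4 was the most abundant of the 10 mRNAs in every group. In NT it reached 226 ± 4.59 CPM per kb (SD, n = 2), followed by the mitochondrial folate enzymes MTHFD2 at 111 and SHMT2 at 102, by PHGDH at 56.1 and by CHAC1 at 23.9. DDIT3 (18.4), ASNS (15.6), TRIB3 (14.4), PSAT1 (11.4) and PSPH (2.89) were lower, and of the neighbours in this order only CHAC1 and DDIT3 overlapped between their NT libraries. In Doxo+Cyta+DAC the first 4 places were the same, at 285 for ATF4, 169 for MTHFD2, 131 for SHMT2 and 104 CPM per kb for PHGDH. PSAT1 came next in that group at 31.2 CPM per kb, ahead of ASNS, TRIB3, CHAC1 (11.6) and DDIT3 (11.5), all of which had been above it in NT. Its libraries overlapped with those of ASNS, and the CHAC1 and DDIT3 libraries overlapped with each other. Counting placed each fragment without splitting it over exon junctions, so these levels also depend on how many junctions a gene has.

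Among the stress regulators, ATF4 mRNA stood at 466 and 452 CPM in NT, at 670, 734 and 759 CPM in Doxo replicates 4, 5 and 6, at 556, 661 and 539 CPM in Doxo+Cyta replicates 19, 20 and 22, and at 555, 582, 585 and 587 CPM in Doxo+Cyta+DAC replicates 30 to 33. The 2 NT libraries were the lowest of the 12, the 3 Doxo libraries the highest, and Doxo+Cyta and Doxo+Cyta+DAC overlapped. Doxo relapses held 1.57-fold more ATF4 mRNA than NT cells (0.65 ± 0.11 on the log2 scale, value ± SE, adjusted p = 0.00386, edgeR quasi-likelihood test with Benjamini-Hochberg adjustment over all tested genes, as for every adjusted p below unless another tool is named). It was 1.26-fold higher in Doxo+Cyta+DAC than in NT (0.33 ± 0.10, adjusted p = 0.0166) and lower in Doxo+Cyta+DAC than in Doxo (-0.32 ± 0.09, adjusted p = 0.00687). The difference between Doxo+Cyta and NT was 0.35 ± 0.11 (adjusted p = 0.105), and that between Doxo+Cyta+DAC and Doxo+Cyta was -0.02 ± 0.09 (adjusted p = 0.853). Without Doxo replicate 4 and Doxo+Cyta replicate 20, ATF4 was also called higher in Doxo+Cyta than in NT (0.23, adjusted p = 0.0443) and in Doxo than in Doxo+Cyta (0.44, adjusted p = 0.00327, beside 0.30 ± 0.10 and 0.106 with all libraries), and Doxo+Cyta+DAC against Doxo+Cyta gave 0.07 (adjusted p = 0.318). The call of Doxo against NT was lost without NT replicate 1 (adjusted p = 0.0724) or NT replicate 2 (0.0674). The call of Doxo+Cyta+DAC against NT was lost without either of them as well (0.35 and 0.31 on the log2 scale). It was also lost with upper-quartile scaling (0.25, adjusted p = 0.0631) and with no filter on low counts (0.29, adjusted p = 0.0614).

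DDIT3, the pro-apoptotic factor CHOP, was counted at 24.3 and 19.1 CPM in NT, at 28.5, 36.2 and 34.1 CPM in Doxo, at 27.1, 40.8 and 29.1 CPM in Doxo+Cyta, and at 12.2, 15.3, 15.2 and 11.2 CPM in Doxo+Cyta+DAC. All 4 Doxo+Cyta+DAC libraries were below the other 8, whereas the Doxo and Doxo+Cyta libraries overlapped with each other and lay above NT. DDIT3 fell 2.44-fold in Doxo+Cyta+DAC against Doxo (-1.28 ± 0.17, adjusted p = 2.51e-05), 2.39-fold against Doxo+Cyta (-1.26 ± 0.17, adjusted p = 2.65e-05) and 1.61-fold against NT (-0.68 ± 0.19, adjusted p = 0.00939). Against NT the call was lost without NT replicate 1 (adjusted p = 0.143). In Doxo against NT the value was 0.60 ± 0.20 (adjusted p = 0.0731), and it passed the threshold without Doxo replicate 4 (0.66, adjusted p = 0.0433). Exons of DDIT3 share bases with MARS on the opposite strand and counting ignored strand, so fragments of the 2 genes can be confused or lost there. MARS itself rose in the same comparisons (1.26 ± 0.19 on the log2 scale against Doxo, adjusted p = 6.99e-05), while DDIT3 fell.

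TRIB3, a pseudokinase that restrains ATF4 and AKT signalling, was not called in any of the 6 comparisons. Its level was 41.1 and 41.9 CPM in NT, 44.2, 35.9 and 36.5 CPM in Doxo, 28.9, 52.5 and 31.2 CPM in Doxo+Cyta, and 47.5, 42.6, 57.9 and 45.9 CPM in Doxo+Cyta+DAC. Doxo+Cyta replicate 20 held the second highest value of the 12, next to the 2 lowest values in the same group. Doxo+Cyta+DAC against Doxo+Cyta gave 0.37 ± 0.18 (adjusted p = 0.0966), and 0.69 without Doxo+Cyta replicate 20 (adjusted p = 0.000668). With Doxo replicate 4 left out as well, TRIB3 was also higher in Doxo+Cyta+DAC than in Doxo (0.43, adjusted p = 0.0042) and lower in Doxo+Cyta than in NT (-0.49, adjusted p = 0.0255).

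CHAC1, which degrades glutathione, had the widest range of the 10 genes over the group means, 2.07 on the log2 CPM scale (rank 779 of 14164 tested genes). It was counted at 31.3 and 43.4 CPM in NT, at 71.2, 72.4 and 73.2 CPM in Doxo, at 27.7, 60.5 and 29.5 CPM in Doxo+Cyta, and at 13.2, 14.9, 14.5 and 30.0 CPM in Doxo+Cyta+DAC. The 3 Doxo libraries were the highest of the 12 and differed by at most 1.03-fold from one another, and 3 of the 4 Doxo+Cyta+DAC libraries were the lowest. The other Doxo+Cyta+DAC library, replicate 33, overlapped with Doxo+Cyta. CHAC1 fell 4.01-fold in Doxo+Cyta+DAC against Doxo (-2.0 ± 0.30, adjusted p = 6e-05), 2.18-fold against Doxo+Cyta (-1.12 ± 0.30, adjusted p = 0.00475) and 2.07-fold against NT (-1.05 ± 0.33, adjusted p = 0.0164), and the last call was lost without NT replicate 2 (adjusted p = 0.165). Against Doxo+Cyta the value shrank to -0.67 without Doxo+Cyta replicate 20 (adjusted p = 0.0367). Doxo against NT gave 0.95 ± 0.36 with adjusted p = 0.0985 although their libraries did not overlap. The adjusted p was 0.0112 when the NT and Doxo libraries were fitted alone and 0.0206 without Doxo replicate 4 and Doxo+Cyta replicate 20. Doxo against Doxo+Cyta gave 0.88 ± 0.31 (adjusted p = 0.14), and 1.33 without Doxo+Cyta replicate 20 (adjusted p = 0.0188).

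ASNS, which makes asparagine, stood at 40.2 and 38.5 CPM in NT, at 62.2, 44.5 and 45.4 CPM in Doxo, at 41.0, 53.6 and 34.0 CPM in Doxo+Cyta, and at 50.3, 51.4, 48.1 and 66.9 CPM in Doxo+Cyta+DAC. Each Doxo and each Doxo+Cyta+DAC library was above both NT libraries, but no comparison was called. Doxo differed from NT by 0.36 ± 0.20 on the log2 scale (adjusted p = 0.26), and the value for Doxo+Cyta+DAC was 0.46 ± 0.20 (adjusted p = 0.0665). The difference between Doxo+Cyta+DAC and Doxo+Cyta of 0.34 ± 0.17 (adjusted p = 0.104) became 0.52 without Doxo+Cyta replicate 20 (adjusted p = 0.0152). That between Doxo+Cyta+DAC and NT passed the threshold when these 2 groups were fitted alone (0.42, adjusted p = 0.0219). It also passed without both Doxo replicate 4 and Doxo+Cyta replicate 20 (0.43, adjusted p = 0.0109).

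**Figure D1:**
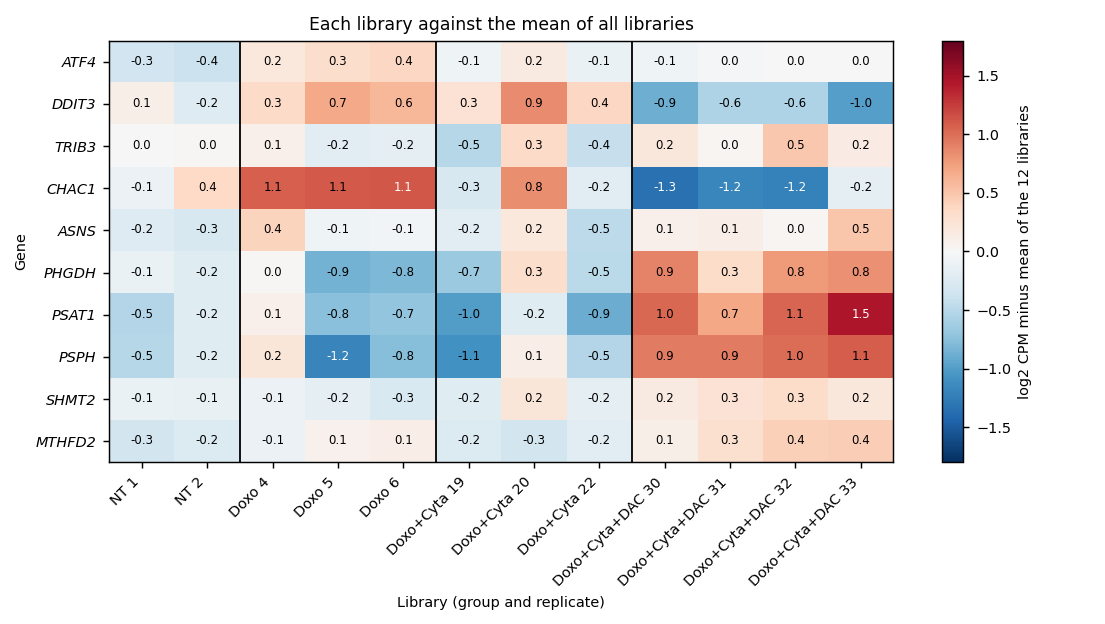
Log2 CPM of each gene (rows) in each library (columns) minus the mean of the 12 libraries, from blue (lower) to red (higher), with lines between groups. The PHGDH, PSAT1 and PSPH rows are highest in the 4 Doxo+Cyta+DAC columns, where DDIT3 is lowest in all 4 and CHAC1 in 3 of the 4. In those 3 serine rows, Doxo 4 and Doxo+Cyta 20 are higher than the other columns of their groups.

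The 3 enzymes of serine synthesis formed the other side of the pattern. PHGDH, which takes 3-phosphoglycerate out of glycolysis, was counted at 117 and 109 CPM in NT, at 129, 70.1 and 72.3 CPM in Doxo, at 79.9, 159 and 90.3 CPM in Doxo+Cyta, and at 237, 159, 217 and 224 CPM in Doxo+Cyta+DAC. The Doxo+Cyta+DAC libraries were the 4 highest, though replicate 31 and Doxo+Cyta replicate 20 both rounded to 159 CPM. PHGDH rose 2.31-fold in Doxo+Cyta+DAC against Doxo (1.21 ± 0.25, adjusted p = 0.000957), 1.91-fold against Doxo+Cyta (0.93 ± 0.25, adjusted p = 0.00515) and 1.85-fold against NT (0.89 ± 0.29, adjusted p = 0.0198). The call against NT was lost without NT replicate 1 (adjusted p = 0.0914) or NT replicate 2 (0.122). In Doxo replicates 5 and 6 PHGDH lay below both NT libraries and in replicate 4 above both, so that Doxo against NT gave -0.32 ± 0.29 (adjusted p = 0.494) with all 3 libraries and -0.70 (adjusted p = 0.00323) when Doxo replicate 4 and Doxo+Cyta replicate 20 were left out together.

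PSAT1, the transaminase of the second step, showed 23.0 and 28.5 CPM in NT, 35.4, 19.6 and 20.3 CPM in Doxo, 16.5, 28.6 and 17.7 CPM in Doxo+Cyta, and 67.7, 53.6, 69.0 and 91.3 CPM in Doxo+Cyta+DAC. Every Doxo+Cyta+DAC library was above every other library, and the other 3 groups overlapped. PSAT1 had the largest rise of the 10 genes, 3.36-fold in Doxo+Cyta+DAC against Doxo+Cyta (1.75 ± 0.25, adjusted p = 4.34e-05), 2.81-fold against Doxo (1.49 ± 0.25, adjusted p = 0.000168) and 2.74-fold against NT (1.45 ± 0.29, adjusted p = 0.00102). These 3 calls were kept under each alternative run, with log2 fold changes from 1.30 to 2.04. Neither Doxo (-0.04 ± 0.29, adjusted p = 0.95) nor Doxo+Cyta (-0.30 ± 0.29, adjusted p = 0.603) was called against NT.

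PSPH, the phosphatase that releases serine, was the least abundant of the 10 genes per kilobase in every group and was counted at 5.50 and 6.73 CPM in NT, 9.21, 3.38 and 4.61 CPM in Doxo, 3.65, 8.54 and 5.44 CPM in Doxo+Cyta, and 15.3, 15.2, 15.9 and 16.9 CPM in Doxo+Cyta+DAC. The last 4 values differed by at most 1.11-fold, against 2.73-fold within Doxo and 2.34-fold within Doxo+Cyta, where replicates 4 and 20 were the highest. Its rise in Doxo+Cyta+DAC was 2.78-fold against Doxo (1.48 ± 0.31, adjusted p = 0.000944), 2.70-fold against Doxo+Cyta (1.43 ± 0.31, adjusted p = 0.00109) and 2.59-fold against NT (1.37 ± 0.35, adjusted p = 0.00538). The call against NT was lost without NT replicate 1 (adjusted p = 0.0691). Doxo against NT gave -0.10 ± 0.37 (adjusted p = 0.883), and -0.65 (adjusted p = 0.0333) without Doxo replicate 4 and Doxo+Cyta replicate 20.

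The mitochondrial folate enzymes moved less. SHMT2, which splits serine into glycine and a folate-bound carbon, stood at 293 and 289 CPM in NT, at 295, 281 and 263 CPM in Doxo, at 272, 370 and 280 CPM in Doxo+Cyta, and at 355, 379, 398 and 366 CPM in Doxo+Cyta+DAC. Doxo+Cyta replicate 20 lay inside the Doxo+Cyta+DAC range, and the other 7 libraries outside that group lay below it. SHMT2 rose 1.34-fold in Doxo+Cyta+DAC against Doxo (0.42 ± 0.11, adjusted p = 0.00428), 1.29-fold against NT (0.37 ± 0.12, adjusted p = 0.0251) and 1.22-fold against Doxo+Cyta (0.29 ± 0.11, adjusted p = 0.0341). The calls against NT and Doxo+Cyta were lost in 5 of 13 and 6 of 14 alternatives, among them upper-quartile scaling (adjusted p = 0.0855 and 0.15), leaving out either NT library for the first (0.119 and 0.135) and leaving out Doxo+Cyta replicate 19 or 22 for the second (0.183 and 0.161). Exons of SHMT2 also share bases with NDUFA4L2.

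MTHFD2, the next enzyme of the mitochondrial route, was at 245 and 261 CPM in NT, 286, 327 and 336 CPM in Doxo, 260, 246 and 267 CPM in Doxo+Cyta, and 332, 379, 414 and 421 CPM in Doxo+Cyta+DAC. The Doxo+Cyta values fell in or next to the NT range, the Doxo values lay above both groups, and replicate 30 of Doxo+Cyta+DAC overlapped with Doxo. MTHFD2 rose 1.53-fold in Doxo+Cyta+DAC against NT (0.61 ± 0.12, adjusted p = 0.000762), 1.5-fold against Doxo+Cyta (0.58 ± 0.10, adjusted p = 0.000205) and 1.22-fold against Doxo (0.29 ± 0.10, adjusted p = 0.0232). The last call was lost without Doxo replicate 4 (adjusted p = 0.0742), Doxo+Cyta+DAC replicate 32 (0.0627) or Doxo+Cyta+DAC replicate 33 (0.0645). Doxo against NT gave 0.32 ± 0.12 (adjusted p = 0.1), and 0.36 without Doxo replicate 4 (adjusted p = 0.0483). Pseudogenes named after MTHFD2 (7), ATF4 (4), ASNS (4), PSAT1 (4) and PSPH (1) are annotated. Of these only MTHFD2P1 was among the genes kept from the count table, and whether fragments were placed on any of them was not tested.

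**Figure D2:**
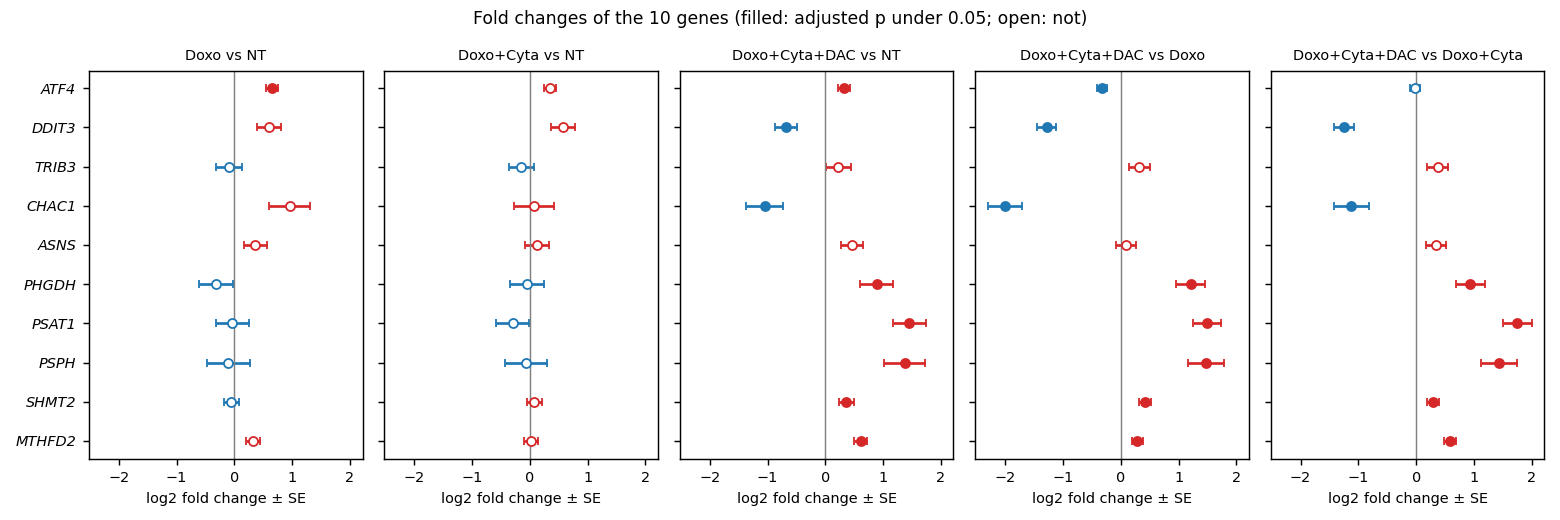
Log2 fold change of each of the 10 genes in 5 comparisons, with bars of 1 SE, filled where the adjusted p was under 0.05, red above 0 and blue below. In the 3 comparisons of Doxo+Cyta+DAC, PHGDH, PSAT1, PSPH, SHMT2 and MTHFD2 are filled on the right and DDIT3 and CHAC1 on the left, while ATF4 is higher against NT, lower against Doxo and open against Doxo+Cyta.

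Counted over the comparisons, Doxo against NT called 1 of the 10 genes higher (ATF4) and 0 lower, where 6.06% of all tested genes were called higher and 4.63% lower. At an unadjusted p under 0.05, 4 of the 10 passed in Doxo against NT (ATF4, DDIT3, CHAC1 and MTHFD2), and DESeq2 called 2 (ATF4 and DDIT3). Without Doxo replicate 4 and Doxo+Cyta replicate 20, 6 were called in this comparison, ATF4, DDIT3, CHAC1 and MTHFD2 higher and PHGDH and PSPH lower. Doxo+Cyta against NT called 0 higher and 0 lower, against 0.911% and 0.551% of all tested genes. There 2 passed at an unadjusted p under 0.05 (ATF4 and DDIT3), DESeq2 called ATF4, and without the same 2 libraries ATF4 was higher and TRIB3 lower. Doxo against Doxo+Cyta called 0 in either direction as well, with 2.32% of all tested genes higher and 1.07% lower. In that comparison 3 passed at an unadjusted p under 0.05 (ATF4, CHAC1 and MTHFD2), DESeq2 called ATF4, and without the 2 libraries ATF4 and CHAC1 were higher in Doxo.

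Doxo+Cyta+DAC against NT called 6 of the 10 higher and 2 lower, where 24.9% and 23.7% of all tested genes were called. Without NT replicate 1 the 8 calls became 3, and without NT replicate 2 they became 4. Against Doxo, 5 were higher and 3 lower, with 29.1% and 30.4% of all tested genes called, and against Doxo+Cyta 5 were higher and 2 lower, with 29.8% and 30.5%. A large share of all genes thus differed in these 3 comparisons, which share the Doxo+Cyta+DAC libraries and are not independent of one another. The median log2 fold change of the 10 genes was 0.41, 0.30 and 0.35 in them, in the order NT, Doxo and Doxo+Cyta, against 0.02, -0.01 and 0.00 over all tested genes. In Doxo against NT, Doxo+Cyta against NT and Doxo against Doxo+Cyta it was 0.14, 0.05 and 0.15, against 0.01, 0.01 and -0.01.

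Genes around the 10 were then read from pathway lists. Of the 14 kinases and regulators of eIF2-alpha, 6 were higher and 4 lower in Doxo+Cyta+DAC against NT, 6 and 4 against Doxo, and 7 and 3 against Doxo+Cyta, where the shares of all tested genes were 24.9% and 23.7%, 29.1% and 30.4%, and 29.8% and 30.5%. The eIF2-alpha subunit itself (EIF2S1) and the exchange factor subunit EIF2B3 rose by 1.34 ± 0.10 and 0.81 ± 0.13 on the log2 scale against Doxo+Cyta (adjusted p = 2.49e-07 and 0.000151). The kinases HRI (EIF2AK1) and PERK (EIF2AK3) fell against Doxo+Cyta by 1.24 ± 0.14 and 0.70 ± 0.16 (adjusted p = 5.66e-06 and 0.00149). The kinase PKR (EIF2AK2) rose there (0.85 ± 0.20, adjusted p = 0.00234), and the kinase EIF2AK4 was not called. PPP1R15A (GADD34), which brings a phosphatase to eIF2-alpha and is induced by ATF4 and DDIT3, was at 364 to 385 CPM in NT, 743 to 911 in Doxo, 479 to 586 in Doxo+Cyta and 179 to 237 CPM in Doxo+Cyta+DAC. These 4 ranges did not overlap. PPP1R15A rose in Doxo against NT (1.18 ± 0.14, adjusted p = 0.000544) and fell in Doxo+Cyta+DAC against NT (-0.88 ± 0.13, adjusted p = 9.48e-05).

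Of 15 further stress regulators under ATF4, 12 were tested, and 4 were higher and 0 lower in Doxo against NT (ATF3, ADM2, CEBPB and SESN2). Of all tested genes, 6.06% were higher and 4.63% lower there. ATF3 is a transcription factor induced by many stresses. It was at 13.5 and 14.8 CPM in NT and at 46.0 to 54.7 CPM in Doxo (1.86 ± 0.31, adjusted p = 0.00386). It was at 11.7 to 25.8 CPM in Doxo+Cyta and at 10.9 to 19.4 CPM in Doxo+Cyta+DAC. ATF3 was thus already lower in Doxo+Cyta than in Doxo (adjusted p = 0.00612). It was not called in Doxo+Cyta against NT (adjusted p = 0.677) or in Doxo+Cyta+DAC against Doxo+Cyta (adjusted p = 0.78). In Doxo+Cyta+DAC against Doxo+Cyta 1 was higher and 4 were lower, where 29.8% and 30.5% of all tested genes were. The lower count was thus near the share of all genes, and the list median was -0.32 on the log2 scale. The lower ones included VLDLR (-3.40 ± 0.29, adjusted p = 5.18e-07), NDRG1 (-2.97 ± 0.21, adjusted p = 1.57e-07) and DDIT4 (-1.56 ± 0.23, adjusted p = 4.92e-05), of which NDRG1 and DDIT4 also respond to low oxygen. The higher one was ATF5, the closest relative of ATF4, at 15.9 and 16.9 CPM in NT, 22.4 to 30.1 in Doxo, 12.6 to 20.3 in Doxo+Cyta and 42.6 to 69.1 CPM in Doxo+Cyta+DAC. ATF5 rose 3.44-fold against Doxo+Cyta (1.78 ± 0.19, adjusted p = 3.17e-06), whereas ATF4 mRNA did not pass the test there.

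Amino acid importers and tRNA synthetases under ATF4 were called higher only, with 0 lower, in the 3 comparisons of Doxo+Cyta+DAC. Of all tested genes, 24.9%, 29.1% and 29.8% were called higher against NT, Doxo and Doxo+Cyta, and 23.7%, 30.4% and 30.5% lower. Of the 9 importers 7 were tested, and 5, 5 and 6 were higher against NT, Doxo and Doxo+Cyta. They included the cystine carrier SLC7A11 (1.85 ± 0.21 against Doxo+Cyta, adjusted p = 4.67e-06) and the arginine and lysine carrier SLC7A1 (1.82 ± 0.13, adjusted p = 1.52e-07). Of 13 genes for tRNA charging and export, 10, 12 and 12 were higher, led by IARS (1.66 ± 0.16 against Doxo+Cyta, adjusted p = 1.6e-06). The 7 tested amino acid enzymes of the 8 listed gave 1, 2 and 3 higher and 0 lower, beside 24.9%, 29.1% and 29.8% of all tested genes called higher. The alanine transaminase GPT2 (0.90 ± 0.18 against Doxo+Cyta, adjusted p = 0.000718) and the aspartate transaminase GOT1 (0.79 ± 0.13, adjusted p = 0.00012) were among those that rose.

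Of 22 further folate and one-carbon genes, 14 were higher and 4 lower in Doxo+Cyta+DAC against NT, 16 and 2 against Doxo, and 16 and 3 against Doxo+Cyta. The shares of all tested genes were 24.9% and 23.7%, 29.1% and 30.4%, and 29.8% and 30.5%. The median log2 fold change of the list was 0.63, 0.80 and 0.83. Without NT replicate 2 the first count became 9 and 2. The folate carrier SLC19A1 went from 17.1 to 34.2 CPM in Doxo+Cyta to 156 to 204 CPM in Doxo+Cyta+DAC (3.03 ± 0.39, adjusted p = 1.77e-05). MTHFD1L, which follows MTHFD2 and releases formate in mitochondria, rose by 1.46 ± 0.16 against Doxo+Cyta (adjusted p = 3.18e-06), beside 0.58 ± 0.10 for MTHFD2 itself. Its cytosolic relative MTHFD1 rose by 0.89 ± 0.12 (adjusted p = 3.06e-05), and cytosolic SHMT1 rose by 0.50 ± 0.18 (adjusted p = 0.0255), while the MTHFD2 paralog MTHFD2L gave 0.08 ± 0.16 (adjusted p = 0.662). In the glycine cleavage system GLDC rose against Doxo+Cyta (1.68 ± 0.44, adjusted p = 0.0042) and the aminomethyltransferase AMT fell (-2.99 ± 0.23, adjusted p = 2.39e-07). Its carrier protein GCSH, named here after its values were seen, rose too (1.33 ± 0.20, adjusted p = 5.31e-05). In Doxo against NT 0 of the 22 were higher and 4 lower, among them GCSH, GART and MAT2A, beside 6.06% and 4.63% of all tested genes.

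The IRE1 and ATF6 arms of the unfolded protein response do not run through ATF4. Of 20 genes, 6 were higher and 5 lower in Doxo+Cyta+DAC against Doxo+Cyta, near the 29.8% and 30.5% of all tested genes, with a list median of 0.11 on the log2 scale. In Doxo against NT 2 were higher (HERPUD1 and HSPA5) and 0 lower, beside 6.06% and 4.63% of all tested genes. HERPUD1, a degradation factor that ATF4 and ATF6 both act on, was at 85.0 to 152 CPM in Doxo and 65.8 to 77.4 CPM in Doxo+Cyta. It was at 25.2 to 32.6 CPM in Doxo+Cyta+DAC, lower than in Doxo (-2.14 ± 0.17, adjusted p = 5e-07) and than in Doxo+Cyta (-1.29 ± 0.17, adjusted p = 1.94e-05). Doxo was itself higher than Doxo+Cyta (0.84 ± 0.18, adjusted p = 0.0215). In Doxo+Cyta against NT 0 genes of these 7 lists were called in either direction, where 0.911% and 0.551% of all tested genes were. Fold changes in lists are described by counts and medians, and no list was tested as a set.

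The 10 genes did not vary as 1 block. Over the 12 libraries, after each gene was centred on its own mean, PSAT1 and PSPH were the nearest to each other of the serine enzymes, with a root-mean-square difference of 0.236 on the log2 scale, and PHGDH was nearest to PSPH (0.293). SHMT2 and TRIB3, both with small ranges, differed by 0.161. The nearest of the 10 to CHAC1 was DDIT3 at 0.557, and its nearest gene among all 14164 was ADM2 (adrenomedullin 2) at 0.25, followed by CITED1 (0.251) and MVB12B (0.28). The nearest to PSAT1 were FAM57A (0.153), ARSB (0.176) and ZNF124 (0.179), and those to PSPH were GINS2 (0.188), BYSL (0.203) and SPRN (0.213). These distances are descriptions over libraries that share groups.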

How the data were processed

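RNA was sequenced from 12 HEL cultures in 4 groups assigned from the sample labels, which describe separate biological replicates. The series text counts 3 untreated samples, and the 2 given here were analysed. The authors checked reads with FastQC, trimmed them with fastx-toolkit, aligned them to GRCh38 with Bowtie2 2.2.8, an aligner that leaves spliced reads unsplit, and counted fragments per gene with featureCounts 1.6.0 without regard to strand. The deposited values are raw counts, whole in every cell. Of 26485 rows, 4 lacked a count and were left out.

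Counts were tested with edgeR 4.0.16 (R 4.3.3) after filterByExpr and TMM scaling, with all 12 samples in 1 quasi-likelihood fit (glmQLFit, glmQLFTest, two-sided) and Benjamini-Hochberg adjustment, separately in each of 6 comparisons, over all 14164 genes that passed the filter. A gene was called at an adjusted p under 0.05. The SE was the log2 fold change over the root of F. CPM are scaled by TMM. Alternatives were DESeq2 1.42.0, other scalings and filters, fits of the 2 groups alone, a stricter rule and leaving out libraries. The fit was tested on simulated data. The 10 genes and the lists were chosen with earlier results of these data known. Of each list, up to 3 genes per direction and comparison could be named, with an adjusted p under 0.05, no overlap and a mean of at least 1 CPM, and paralogs of the 10 genes whatever their values. No library pair of a group differed by as little as sampling noise. Gene places in GENCODE 44 served to find overlaps. Intervals from counts would cover counting error only. Each replicate number occurs in 1 group, so no samples were paired.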

Additional observations from a re-analysis of the deposited data

Results flagged for a closer look

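Within the 4 Doxo+Cyta+DAC libraries, 2 values stood outside the rest by Dixon's test at the 95% level. ATF4 in replicate 30 was 555 CPM beside 582 to 587 CPM in the others, a gap of 0.848 of the range. CHAC1 in replicate 33 was 30.0 CPM beside 13.2 to 14.9 CPM, a gap of 0.9 of the range. Chance flags about 1 in 20 such groups, and each of the 10 genes was looked at once. Without replicate 30 the ATF4 calls were kept, and without replicate 33 those of CHAC1 were.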

How the results depend on the processing

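Of the 24 called differences of the 10 genes, 301 of 326 values under the alternatives stayed past the threshold, 25 (of 9 differences) did not, and 0 changed direction. PSAT1, DDIT3, CHAC1, PHGDH, PSPH and MTHFD2 kept their calls of Doxo+Cyta+DAC against Doxo+Cyta in all 14 alternatives. Of the 36 differences not called, 24 of 454 values passed the threshold and 39 changed direction. Leaving an NT library out leaves 1, which is then assumed to vary like the other groups. The cause of these changes was not tested.

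The count of the 10 genes called in Doxo against NT was 1, and 2 with DESeq2 or the 2 groups alone, 0 under the stricter rule (adjusted p under 0.01 and a fold over 2), and 0 to 6 without libraries (0 without either NT, 3 without Doxo replicate 4, 6 without Doxo replicate 4 and Doxo+Cyta replicate 20, chosen after seeing the data). In Doxo+Cyta against NT it was 0, 1 with DESeq2 and 0 to 2 without libraries, and in Doxo against Doxo+Cyta 0, 1 with DESeq2 and 0 to 2. In Doxo+Cyta+DAC it was 8 against NT (2 under the stricter rule, 3 to 9 without libraries), 8 against Doxo and 7 against Doxo+Cyta (5 and 4 under the stricter rule).

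Differences that changed direction when libraries were left out were, on the log2 scale, in Doxo against NT PSAT1 (-0.39 to 0.12) and PSPH (-0.65 to 0.15). In Doxo+Cyta against NT they were CHAC1 (-0.40 to 0.32), ASNS (-0.0907 to 0.25), PHGDH (-0.43 to 0.12), PSPH (-0.45 to 0.18), SHMT2 (-0.10 to 0.15) and MTHFD2 (-0.0231 to 0.0696, and -0.0192 with no filter on low counts). In Doxo against Doxo+Cyta they were DDIT3 (-0.0952 to 0.31), TRIB3 (-0.12 to 0.37), PHGDH (-0.64 to 0.0833), PSAT1 (-0.0809 to 0.54), PSPH (-0.57 to 0.32) and SHMT2 (-0.23 to 0.0143), and with upper-quartile scaling DDIT3 gave -0.026 and TRIB3 -0.0011. ATF4 in Doxo+Cyta+DAC against Doxo+Cyta (-0.0869 to 0.0723) and ASNS against Doxo (-0.0206 to 0.27) changed direction too. The median of all genes was furthest from 0 at -0.0875, with upper-quartile scaling in Doxo+Cyta+DAC against Doxo+Cyta. PSPH had the fewest counts of the 10 genes, down to 58 in a library, and an SE of 0.31 to 0.37, of which the share due to depth was not tested.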
